A study of Mus musculus with 12 samples.

Results

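The genes described here are 10 transcription factor and early response genes, *Fos*, *Fosb*, *Fosl1*, *Fosl2*, *Jun*, *Junb*, *Jund*, *Egr1*, *Ier2* and *Ier3*, taken by symbol out of 55487 genes in the count table. All 10 passed the filter on low counts, as did 13581 genes in all. Their transcripts were read at the 3′ end in im-TEC, mouse tubular epithelial cells of the kidney that are immortalized through a conditional SV40 large T antigen. Each of 4 groups held 3 libraries from cells treated for 48 h. TGFβ + NNMTi cells received TGFβ at 10 ng/mL with 5-amino-1-methylquinolinium, an inhibitor of nicotinamide N-methyltransferase (NNMT), at 50 µM. TGFβ cells received 10 ng/mL TGFβ alone, NNMTi cells 50 µM inhibitor alone, and control cells neither. The cells of all groups came from cultures kept at 33 °C with interferon-gamma at 10 ng/mL, in medium with 10% serum and epidermal growth factor at 20 ng/mL. They then spent 7 days at 37 °C without interferon-gamma, which lowers large T activity. The comparisons ask what TGFβ does to these transcripts, what the inhibitor does alone, and what it does on top of TGFβ. As a single immortalized line in culture, im-TEC stands for tubule cells only in part. There is 1 late time point, so the minutes to hours in which immediate early genes are usually studied were not sampled.

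AP-1 is a pair of leucine zipper proteins, of which at least 1 is a JUN protein (*Jun*, *Junb*, *Jund*) and the other is often a FOS protein (*Fos*, *Fosb*, *Fosl1*, *Fosl2*). FOS and FOSB carry strong activation domains, whereas FOSL1 and FOSL2, also called FRA-1 and FRA-2, lack one. Serum and growth factors switch on *Fos*, *Egr1* and *Ier2* within minutes without new protein synthesis, through MAP kinases and the factors SRF and ELK at their promoters. The RNA is then removed quickly, in part through AU-rich elements in the 3′ untranslated region (UTR). In kidney epithelium AP-1 is known for its part in the responses to injury and to TGFβ, whose SMAD proteins bind DNA together with it.

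The promoters of *Fos* and *Junb* are shown because their transcripts moved in opposite directions in TGFβ + NNMTi cells relative to control. The sequences are the 250 bases before the RefSeq start on GRCm38.p6, *Fos* at chr12:85473640-85473889 on the plus strand and *Junb* at chr8:84978749-84978998 on the minus strand. Capitals mark TATAAA, which TFIID recognises near many starts, and TGACG, the core of the cAMP response element.
Fos: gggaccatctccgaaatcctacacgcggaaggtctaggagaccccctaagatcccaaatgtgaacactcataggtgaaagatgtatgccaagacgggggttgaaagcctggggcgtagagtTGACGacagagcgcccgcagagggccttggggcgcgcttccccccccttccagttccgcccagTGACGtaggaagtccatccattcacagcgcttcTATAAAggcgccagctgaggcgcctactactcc
Junb: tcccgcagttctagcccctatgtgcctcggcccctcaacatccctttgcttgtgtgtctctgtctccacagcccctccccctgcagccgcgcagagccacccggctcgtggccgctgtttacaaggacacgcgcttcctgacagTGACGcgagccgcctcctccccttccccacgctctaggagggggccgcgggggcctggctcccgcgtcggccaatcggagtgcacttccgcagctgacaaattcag
In the *Fos* promoter TATAAA began 33 bases before the start, and TGACG began 129 and 66 bases before it. In *Junb*, TGACG began 106 bases before the start and TATAAA lay at the start itself, outside the printed stretch. RefSeq promoters were matched for 7 of the 10 genes, *Fos*, *Fosb*, *Fosl2*, *Jun*, *Junb*, *Jund* and *Ier3*. The search covered both strands from 250 bases before to 50 bases after the start. Among 32851 promoters of the same length, TATAAA was found in 13.6% and TGACG in 20.8%. *Fosb* had 1 TGACG, beginning 60 bases before the start. TGACG is also the first part of TGACGTCA, the full cAMP response element, which 1.79% of promoters held. No match among the 7 was found for TGACGTCA, for the AP-1 site TGACTCA (5.2% of promoters), for the CArG box that SRF binds (1.63%), for the EGR1 site GCGTGGGCG (0.612%) or for the SMAD element CAGACA (21.0%). The serum response element known from the *Fos* promoter lies further upstream than these windows reach.

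AU-rich stretches of 30 bases are shown for *Fos*, *Jun* and *Ier3*, which fell with TGFβ, and for *Fosl2*, which had the most copies of ATTTA, the core of these elements. No stretch is shown for *Egr1*, which also fell with TGFβ. The stretches are read along the transcript on GRCm38 and capitals mark ATTTA.
Fos: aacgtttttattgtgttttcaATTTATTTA
Jun: gtgatcATTTAtaatcataggaaagATTTA
Ier3: ctccgtgtctaattaatATTTAtgtATTTA
Fosl2: agaagaaattgacATTTAttttattATTTA
They begin at base 632 of the 815-base 3′ UTR of *Fos*, base 1028 of the 1233-base 3′ UTR of *Jun*, base 166 of the 613-base 3′ UTR of *Ier3* and base 3669 of the 4653-base 3′ UTR of *Fosl2*. ATTTA, read on the transcript strand, occurred 4 times in *Fos*, 4 in *Jun*, 5 in *Ier3* and 8 in *Fosl2*. Per kilobase this is 4.91, 3.24, 8.16 and 1.72. The median of 11282 tested genes with a 3′ UTR was 1.24 per kilobase. *Junb*, which was not called in TGFβ against control, had 4.12 per kilobase, and *Egr1*, which fell, had 1.64. *Jund* had 1.88, *Fosl1* 1.57 and *Fosb* 0.466 per kilobase, and *Ier2* had no ATTTA. The longer form TTATTTATT, which contains ATTTA, was present once each in *Fos* and *Fosl2* and in 7.53% of the 11282 genes. RNA stability was not measured, and matches are given as a description of the letters.

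Library totals in genes ranged from 2584117 counts (TGFβ replicate 3) to 11866903, with the second lowest at 7838352, so that 3 counts in a library were worth 0.266 to 1.15 CPM, which is the count relative to the scaled total of its library. TGFβ libraries differed among themselves most, with a biological coefficient of variation of 0.227, against 0.112 in TGFβ + NNMTi, 0.0884 in NNMTi and 0.0657 in control. TGFβ replicate 2 stood apart, with chi-square over degrees of freedom at 40.8 and 31.6 against its partners, which differed from each other by 6.24. Without it, at least 1 of the 10 genes gained a call in each of the 6 comparisons, and the values without it stand beside *Jund*, *Fosl2*, *Junb*, *Jun*, *Ier2*, *Ier3*, *Fos* and *Egr1*. The TGFβ labels were checked on *Ccn2*, a TGFβ target, which averaged 5420 ± 1980 CPM in TGFβ + NNMTi, 3100 ± 1870 in TGFβ, 228 ± 35.1 in NNMTi and 457 ± 69.9 in control (SD, n = 3 each). *Ccn2* does not check the inhibitor labels. It was not called in TGFβ + NNMTi against TGFβ (edgeR adjusted p = 0.377) or in NNMTi against control (edgeR adjusted p = 0.321). Of 14 tubular epithelial markers 12 passed the filter, *Pax8*, *Pax2* and *Cdh16* among them, with summed levels of 2380 to 2560 CPM in TGFβ + NNMTi, 2580 to 3030 in TGFβ, 3230 to 3390 in NNMTi and 3060 to 3160 in control. *Cdh6* averaged 1640, 1730, 1250 and 926 CPM in those groups in the same order, and held most of the sum with TGFβ. *Pax8* averaged 142, 184, 250 and 220 CPM, *Pax2* 114, 142, 255 and 291, and *Cdh16* 71.6, 76, 261 and 213. *Aqp1*, a water channel of the proximal tubule, averaged 11.5, 25.2, 995 and 1010 CPM in those groups in the same order, and the simple keratin *Krt8* 195, 288, 27.3 and 62.6 CPM. *Epcam* was at 0 in all libraries and *Cdh1* had 9 counts over all. Among 8 fibroblast and pericyte markers 3 passed, with summed levels of 37.4 to 47.3 CPM in TGFβ + NNMTi, 156 to 195 in TGFβ, 3.3 to 5.21 in NNMTi and 3.93 to 7.92 in control, mostly from *Col1a1*. *Pdgfra*, *Lum*, *Thy1* and *Meox1* were at 0. Among 7 immune markers 2 passed, with summed levels of 25.8 to 31.6, 43.5 to 58.5, 59.9 to 71.3 and 74.1 to 79.1 CPM in those groups in the same order, and among 7 endothelial markers 1 passed, with sums of at most 6.7 CPM. The immune sums were mostly *Csf1r*, at 23.2, 44.3, 60.8 and 68.6 CPM in that order. *Ptprc* averaged at most 0.377 CPM in any group, and *Cd79a* and *Tyrobp* were at 0. The share of reads outside genes was 21.1 to 22.9% with TGFβ, with or without inhibitor, and 24.1 to 26.8% without it. The part of these values in the results was not tested. In whole cultures, fewer cells expressing a gene and less RNA per cell cannot be told apart. Nothing was measured at the protein level.

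In the control cells the levels spanned from near the top to the lower end of the tested genes. Because 3′ tags do not scale with transcript length, CPM can be set side by side between genes here. *Jund* lay at the 95.7th percentile of tested genes, *Fosl2* at the 94.8th, *Egr1* at the 94.7th and *Jun* at the 94.3rd. *Jund* and *Fosl2* had 257 ± 10.7 and 227 ± 7.12 CPM, and *Egr1* and *Jun* 225 ± 12.4 and 212 ± 16.9, so that *Fosl2*, *Egr1* and *Jun* lay within their spread of each other. *Junb* followed at 108 ± 6.25 CPM and *Ier3* at 86.4 ± 6.29, then *Ier2* at 24.3 ± 2.28 and *Fos* at 22.5 ± 2.90, also within their spread. *Fosl1* had 10.1 ± 1.50 CPM and *Fosb*, the lowest, 3.42 ± 0.603 CPM (SD, n = 3 for all).

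**Figure D1:**
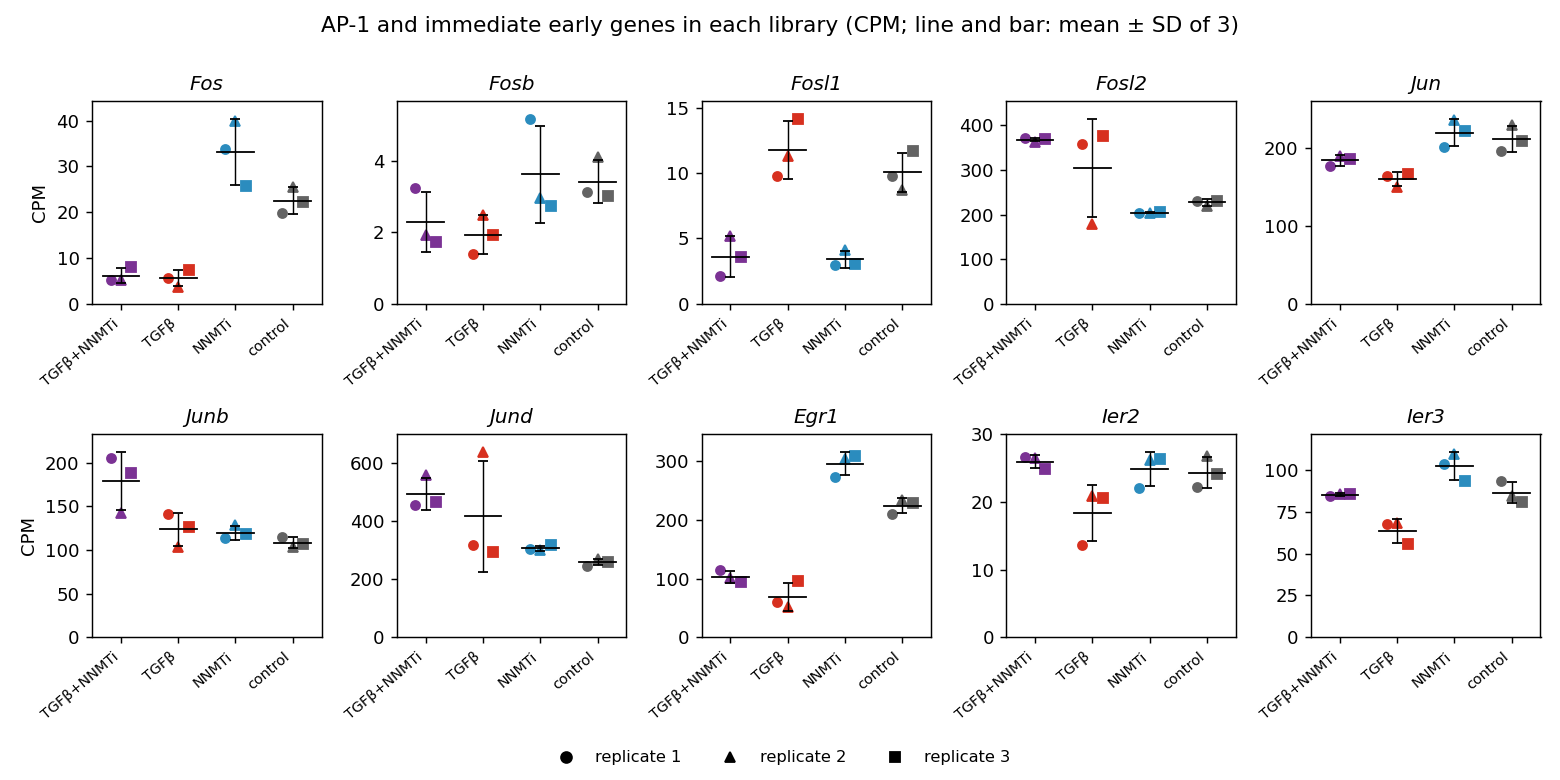
Levels of the 10 genes in each library, in CPM on linear axes that start at 0, for TGFβ + NNMTi, TGFβ, NNMTi and control from left to right. Each point is 1 library and the line and bar give the mean ± SD of 3. Fos and Egr1 lie below 10 and below 115 CPM in every library with TGFβ and above 19 and above 210 CPM in every library without it, and Fosl1 lies below 6 CPM in every library with the inhibitor and above 8 CPM in every library without it.

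*Fos*, the founding AP-1 gene and a textbook target of serum, was low wherever TGFβ was present. It had 5.09, 5.17 and 8.06 CPM in the TGFβ + NNMTi libraries and 5.60, 3.72 and 7.27 CPM in the TGFβ libraries. The NNMTi libraries had 33.9, 40.0 and 25.7 CPM and the control libraries 19.8, 25.5 and 22.3 CPM. Every library with TGFβ was below every library without it, and every NNMTi library was above every control library. *Fos* was 4.43-fold lower in TGFβ than in control (log2 fold change −2.15 ± 0.25 SE, edgeR adjusted p = 1.76e-06). In TGFβ + NNMTi it was 5.46-fold lower than in NNMTi (−2.45 ± 0.23, edgeR adjusted p = 9.52e-08) and 3.71-fold lower than in control (−1.89 ± 0.23, edgeR adjusted p = 3.58e-06). All 3 calls held under each of the 21 alternatives tried. The difference between TGFβ + NNMTi and TGFβ was 0.26 ± 0.27 (edgeR adjusted p = 0.603). Between NNMTi and control, *Fos* differed by 0.56 ± 0.20 and was not called in the 4-group fit (edgeR adjusted p = 0.102). It passed in 5 of 21 alternatives, among them the fit of these groups alone, whose libraries vary less (edgeR adjusted p = 0.00375), and the fit without TGFβ replicate 2 (edgeR adjusted p = 0.0259).

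*Fosb*, whose protein resembles FOS, was the scarcest of the genes and was called in no comparison of the 4-group edgeR fit. Voom with quality weights called it lower in TGFβ against control (−1.13 ± 0.42, voom adjusted p = 0.029), in 1 of 20 alternatives. It had 3.24, 1.91 and 1.72 CPM in TGFβ + NNMTi, 1.40, 2.48 and 1.91 in TGFβ, 5.17, 2.96 and 2.73 in NNMTi and 3.12, 4.12 and 3.02 in control. The TGFβ libraries were all below the control and NNMTi libraries. NNMTi overlapped control, and TGFβ + NNMTi overlapped every other group. These levels rest on 5 to 47 counts per library. The 95% interval of its TGFβ against control log2 difference, −1.57 to −0.03, is wide, and its adjusted p was 0.123 in edgeR.

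*Fosl1*, which encodes FRA-1, was lower in both groups that received the inhibitor. Its levels were 2.08, 5.17 and 3.57 CPM in TGFβ + NNMTi and 9.80, 11.3 and 14.2 CPM in TGFβ. They were 2.97, 4.14 and 3.06 CPM in NNMTi and 9.82, 8.72 and 11.7 CPM in control. All 6 libraries with inhibitor were below all 6 without it. *Fosl1* was 3.16-fold lower in TGFβ + NNMTi than in TGFβ (−1.66 ± 0.29, edgeR adjusted p = 0.00104) and 2.98-fold lower in NNMTi than in control (−1.57 ± 0.28, edgeR adjusted p = 0.00141). TGFβ + NNMTi was also below control, by 1.48 ± 0.28 on the log2 scale (edgeR adjusted p = 0.000485). Each of these calls held under all 21 alternatives. The log2 difference between TGFβ and control was 0.18 with a 95% interval of −0.33 to 0.69, and between TGFβ + NNMTi and NNMTi 0.10 with an interval of −0.51 to 0.70. The counts behind these levels were 18 to 128 per library. *Fosl1* overlaps *Ccdc85b* on the other strand, which held 331, 214, 321 and 366 counts summed over TGFβ + NNMTi, TGFβ, NNMTi and control, against 91, 256, 90 and 276 counts of *Fosl1*. The strand used in counting is not given, so reads in the overlap cannot be assigned with certainty.

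*Fosl2*, which encodes FRA-2, was the most abundant FOS family transcript and was higher in TGFβ + NNMTi than in both groups without TGFβ. It had 372, 364 and 370 CPM in TGFβ + NNMTi, 358, 179 and 377 in TGFβ, 203, 204 and 205 in NNMTi and 231, 219 and 231 in control. TGFβ replicate 2 was below every control library, while the other TGFβ libraries were near the TGFβ + NNMTi libraries. *Fosl2* was 1.81-fold higher in TGFβ + NNMTi than in NNMTi (0.85 ± 0.20, edgeR adjusted p = 0.00491) and 1.62-fold higher than in control (0.70 ± 0.20, edgeR adjusted p = 0.0176). The call against control was lost in 6 of 21 alternatives, where the adjusted p reached 0.07. TGFβ + NNMTi against TGFβ gave 0.28 ± 0.20 (edgeR adjusted p = 0.418), passing in 0 of 21 alternatives. Between TGFβ and control the log2 difference was 0.42 ± 0.20 (edgeR adjusted p = 0.13). Without TGFβ replicate 2 it was 0.68 ± 0.08 (edgeR adjusted p = 3.25e-08).

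Put together, FOS family transcripts were mostly *Fosl2* in every group, more so with TGFβ. *Fosl2* made up 96.8 ± 0.389% of the 4 genes' counts in TGFβ + NNMTi, 93.6 ± 2.29% in TGFβ, 83.6 ± 2.81% in NNMTi and 86.3 ± 1.26% in control (SD, n = 3 each). *Fos* made up 1.60 ± 0.433% in TGFβ + NNMTi and 1.73 ± 0.213% in TGFβ, against 13.5 ± 2.56% in NNMTi and 8.57 ± 1.24% in control. The share of *Fosl1* was lower in both groups with inhibitor, at 0.951% in TGFβ + NNMTi against 3.98% in TGFβ, and at 1.39% in NNMTi against 3.82% in control. The family as a whole summed to 380 CPM in TGFβ + NNMTi, 324 in TGFβ, 244 in NNMTi and 263 in control. These shares are a description without a test of their own.

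**Figure D2:**
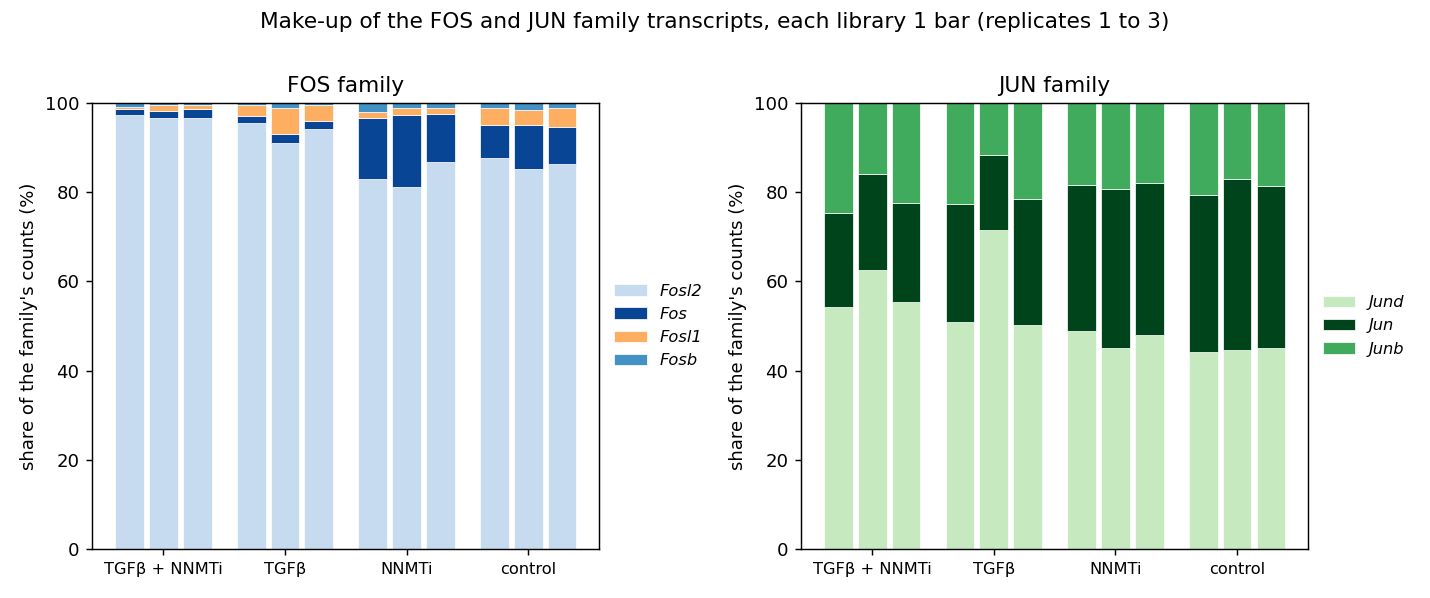
Share of each gene in the summed counts of the 4 FOS family genes (left panel) and of the 3 JUN family genes (right panel), in percent, with 1 bar per library and the groups TGFβ + NNMTi, TGFβ, NNMTi and control from left to right. Fosl2 fills most of every FOS family bar, and the Jund part of TGFβ replicate 2 is larger than in the other TGFβ libraries.

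*Jun*, which encodes the JUN protein that pairs with FOS, was somewhat lower with TGFβ. It had 177, 190 and 187 CPM in TGFβ + NNMTi, 164, 151 and 167 in TGFβ, 201, 237 and 223 in NNMTi and 197, 230 and 210 in control. Every library with TGFβ was below every library without it, and every TGFβ library was below every TGFβ + NNMTi library. *Jun* was 1.32-fold lower in TGFβ than in control (−0.40 ± 0.10, edgeR adjusted p = 0.00285), under all 21 alternatives. It was 1.19-fold lower in TGFβ + NNMTi than in NNMTi (−0.25 ± 0.10, edgeR adjusted p = 0.0453), a call kept in 11 of 21 alternatives. TGFβ + NNMTi did not pass against TGFβ (0.20 ± 0.10, edgeR adjusted p = 0.197) or against control (−0.20 ± 0.10, edgeR adjusted p = 0.12). The difference from control passed in 5 of 21 alternatives, among them without TGFβ replicate 2 (−0.21 ± 0.08, edgeR adjusted p = 0.0358). *Junos*, on the other strand of *Jun*, summed to 17, 31, 63 and 36 counts in the 4 groups, TGFβ + NNMTi, TGFβ, NNMTi and control, where *Jun* had 3665 to 5869.

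*Junb*, which encodes a JUN protein described as a weaker activator and as an antagonist of JUN at some promoters, was highest in TGFβ + NNMTi. The TGFβ + NNMTi libraries had 206, 142 and 189 CPM and the TGFβ libraries 142, 103 and 126 CPM. The NNMTi libraries had 113, 129 and 118 CPM and the control libraries 115, 103 and 107 CPM. All TGFβ + NNMTi libraries were above all NNMTi and control libraries, and the lowest was just above the highest TGFβ library. TGFβ libraries overlapped both NNMTi and control. TGFβ against control gave 0.19 ± 0.13 (edgeR adjusted p = 0.299), but 0.30 ± 0.12 without TGFβ replicate 2 (edgeR adjusted p = 0.0491). *Junb* was 1.45-fold higher in TGFβ + NNMTi than in TGFβ (0.54 ± 0.13, edgeR adjusted p = 0.0154). It was also 1.49-fold higher than in NNMTi (0.58 ± 0.13, edgeR adjusted p = 0.00211) and 1.65-fold higher than in control (0.72 ± 0.13, edgeR adjusted p = 0.00034). The calls against NNMTi and control held under all 21 alternatives. The call against TGFβ was lost in 4, and stood at an adjusted p of 0.118 in edgeR with these groups alone. *Prdx2* overlaps *Junb* on the other strand, with 5158, 4467, 6550 and 6808 counts over TGFβ + NNMTi, TGFβ, NNMTi and control against 4474, 2812, 3199 and 2946 of *Junb*. These sums are not scaled for depth. Both genes had more counts in TGFβ + NNMTi than in TGFβ, while against control *Prdx2* had fewer and *Junb* more. As the strand used in counting is not given, reads in the overlap cannot be assigned with certainty.

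*Jund*, which encodes the JUN protein present in resting cells, had the highest mean of the AP-1 transcripts in every group. Within the TGFβ libraries *Fosl2* was above it in replicates 1 and 3. It had 455, 557 and 466 CPM in TGFβ + NNMTi, 317, 635 and 294 in TGFβ, 301, 300 and 315 in NNMTi and 246, 267 and 259 in control. The TGFβ libraries lay on both sides of the TGFβ + NNMTi libraries, with replicate 2 the highest of all 12 libraries. *Jund* was 1.91-fold higher in TGFβ + NNMTi than in control (0.94 ± 0.23, edgeR adjusted p = 0.00902), under all 21 alternatives. It was 1.61-fold higher in TGFβ + NNMTi than in NNMTi (0.69 ± 0.23, edgeR adjusted p = 0.0362), a call kept in 16 of 21. In TGFβ it was called higher than in control (0.70 ± 0.23, edgeR adjusted p = 0.0349). Without TGFβ replicate 2 this difference was 0.24 ± 0.09 (edgeR adjusted p = 0.0291), and the difference between TGFβ + NNMTi and TGFβ was 0.69 ± 0.09 (edgeR adjusted p = 3.7e-06), against 0.24 ± 0.23 (edgeR adjusted p = 0.568) with all libraries. The call in TGFβ against control was lost in 5 of 21 alternatives, among them without any 1 of the control libraries, at adjusted p of 0.0725 to 0.0966 in edgeR. NNMTi against control gave 0.25 ± 0.23 (edgeR adjusted p = 0.61) with all libraries and 0.23 ± 0.08 (edgeR adjusted p = 0.0408) without TGFβ replicate 2. *Gm11175*, annotated across *Jund* on the other strand, had 0 counts.

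Among the 3 JUN family genes *Jund* made up 57.4 ± 4.52% of counts in TGFβ + NNMTi, 57.5 ± 12.1% in TGFβ, 47.3 ± 2.02% in NNMTi and 44.5 ± 0.476% in control (SD, n = 3 each). *Jun* made up 21.6% in TGFβ + NNMTi, 23.9% in TGFβ, 34.1% in NNMTi and 36.7% in control. *Junb* held 18.6 to 21.0% in the 4 groups. The family summed to 856 CPM in TGFβ + NNMTi, 700 in TGFβ, 646 in NNMTi and 578 in control.

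*Egr1*, a zinc finger factor switched on by the same signals as *Fos*, was called in 4 of the 5 comparisons of groups, more than any other of the 10 genes. It had 114, 100.7 and 94.4 CPM in TGFβ + NNMTi and 59.2, 50.7 and 95.7 CPM in TGFβ. The NNMTi libraries had 274, 304 and 310 CPM and the control libraries 210.4, 233.5 and 229.8 CPM. As with *Fos*, all libraries with TGFβ were below all libraries without it, and all NNMTi libraries were above all control libraries. *Egr1* was 3.39-fold lower in TGFβ than in control (−1.76 ± 0.17, edgeR adjusted p = 7.01e-07). In TGFβ + NNMTi it was 2.87-fold lower than in NNMTi (−1.52 ± 0.16, edgeR adjusted p = 2.04e-06) and 2.18-fold lower than in control (−1.12 ± 0.16, edgeR adjusted p = 5.69e-05). These 3 calls held under all 21 alternatives. TGFβ + NNMTi was 1.56-fold higher than TGFβ (0.64 ± 0.17, edgeR adjusted p = 0.0251), with TGFβ replicate 3, the shallowest library, above the lowest TGFβ + NNMTi library. That call held in 14 of 21 alternatives. It was lost, among others, without TGFβ replicate 1 (edgeR adjusted p = 0.0847) and without any 1 of the TGFβ + NNMTi libraries (edgeR adjusted p of 0.0595 to 0.114). NNMTi against control gave 0.40 ± 0.16 (edgeR adjusted p = 0.151) with the 4 groups in 1 fit, and adjusted p of 1.43e-05 in edgeR with these groups alone and 0.0309 without TGFβ replicate 2.

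*Ier2* and *Ier3* are early response genes outside AP-1, and *Ier3* (also called IEX-1) is known for a role in cell survival. *Ier2* had 26.6, 26.5 and 24.8 CPM in TGFβ + NNMTi, 13.6, 20.9 and 20.7 in TGFβ, 22.0, 26.3 and 26.3 in NNMTi and 22.2, 26.8 and 24.1 in control. The TGFβ libraries were below every other library, and the other groups overlapped. *Ier2* missed the threshold narrowly in both comparisons with TGFβ, at 0.52 ± 0.17 for TGFβ + NNMTi against TGFβ (edgeR adjusted p = 0.051) and −0.43 ± 0.17 for TGFβ against control (edgeR adjusted p = 0.0509). It passed in 10 of 21 alternatives in the first and in 15 of 21 in the second. Without TGFβ replicate 2 the values were 0.71 ± 0.18 (edgeR adjusted p = 0.0105) and −0.62 ± 0.18 (edgeR adjusted p = 0.00823).

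*Ier3* had 84.3, 85.6 and 85.7 CPM in TGFβ + NNMTi, 67.6, 68.2 and 55.5 in TGFβ, 104, 110 and 93.5 in NNMTi and 93.3, 84.7 and 81.0 in control. Its TGFβ libraries too were the lowest of all 12, and its TGFβ + NNMTi libraries lay among the controls. *Ier3* was 1.34-fold lower in TGFβ than in control (−0.42 ± 0.11, edgeR adjusted p = 0.00477), under all 21 alternatives, and 1.32-fold higher in TGFβ + NNMTi than in TGFβ (0.40 ± 0.11, edgeR adjusted p = 0.0231), in 17 of 21. TGFβ + NNMTi and control differed by −0.02, with a 95% interval of −0.23 to 0.19. TGFβ + NNMTi libraries were all below NNMTi libraries, at −0.26 ± 0.11 (edgeR adjusted p = 0.0588), which passed in 8 of 21 alternatives. Without TGFβ replicate 2 that difference was −0.25 ± 0.09 (edgeR adjusted p = 0.0244). NNMTi libraries were all above controls, by 0.24 ± 0.11 (edgeR adjusted p = 0.179).

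**Figure D3:**
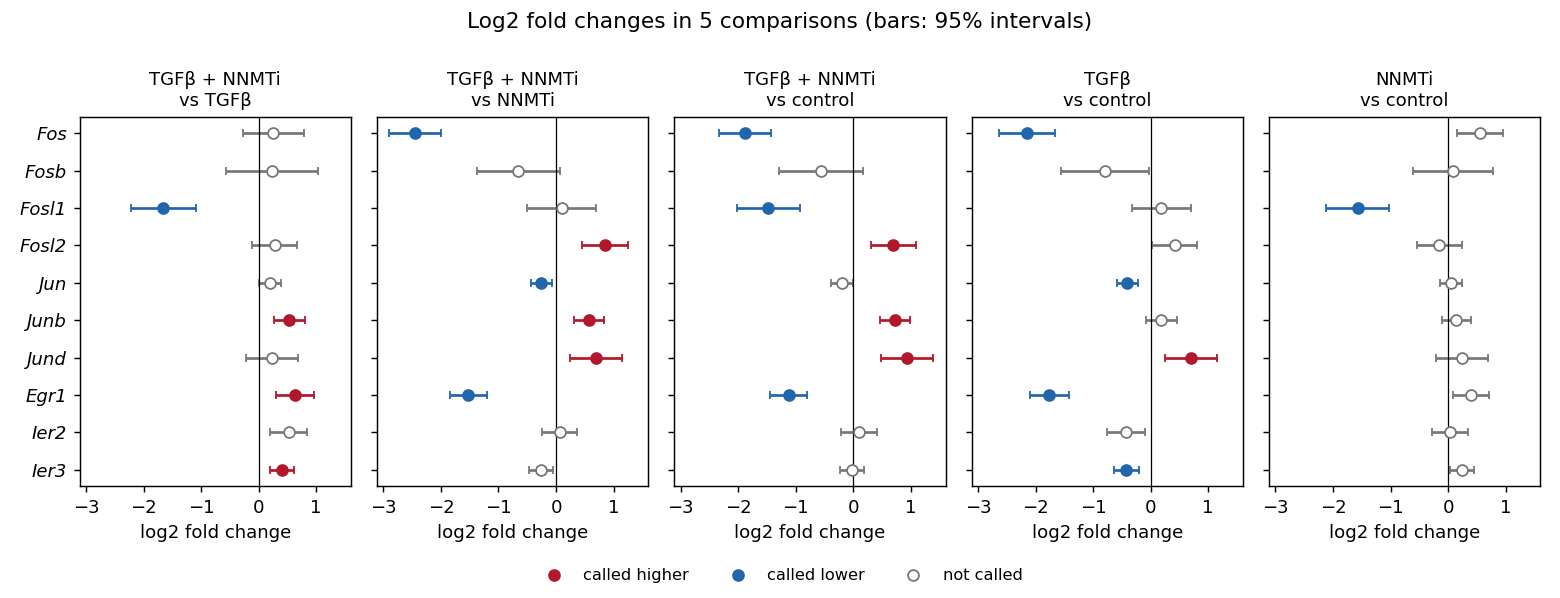
Log2 fold changes of the 10 genes in the 5 comparisons of groups, with bars of the 95% interval (± 1.96 SE of the edgeR fit). Filled points are genes called at an adjusted p below 0.05. Fos and Egr1 lie left of 0 in the 3 comparisons of a group with TGFβ against one without it, and Fosl1 lies left of 0 in the 3 of a group with inhibitor against TGFβ alone or control.

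Read by comparison, TGFβ against control had 5 called genes of 10, *Jund* higher and *Fos*, *Egr1*, *Ier3* and *Jun* lower, where 36.5% of all tested genes were called (19.4% higher, 17.1% lower). The libraries of 7 of the 10 did not overlap between these groups, against 45.4% of all tested genes. The median size of the log2 difference was 0.42 over the 10 genes and 0.37 over all tested genes. The share of called genes was thus near that of the whole transcriptome, which moved widely with TGFβ.

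In TGFβ + NNMTi against TGFβ, 4 of 10 genes were called, *Egr1*, *Junb* and *Ier3* higher and *Fosl1* lower, where 10.4% of all tested genes were called (3.45% higher, 6.97% lower). The signs were positive for 9 of the 10. Libraries did not overlap for 5 of 10 genes, against 23.9% of all tested genes. With only these groups fitted, *Fosl1* alone was called, where 3.19% of all genes in that fit were. With all libraries thinned to the shallowest, *Fosb* was not tested and 2 of the other 9 genes were called, where 6.75% of all genes were.

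NNMTi against control had 1 called gene, *Fosl1*, where 8.27% of all tested genes were called (2.47% higher, 5.8% lower). Libraries did not overlap for 6 of 10 genes, against 35.6% of all tested genes. *Fos*, *Egr1*, *Ier3* and *Jund* lay wholly above control and *Fosl1* and *Fosl2* wholly below it. With only these groups fitted, 5 genes were called, 4 of them higher, where 22.6% of all genes tested in that fit were called.

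TGFβ + NNMTi against NNMTi and against control each had 6 called genes of 10, where 36.3% (18% higher, 18.3% lower) and 31.8% (15.3% higher, 16.5% lower) of all tested genes were called. *Fosl2*, *Jund* and *Junb* were higher and *Fos* and *Egr1* lower in both, with *Jun* lower against NNMTi and *Fosl1* lower against control. Both comparisons use the TGFβ + NNMTi libraries. Libraries did not overlap for 7 of 10 genes in each, against 52.1% and 51.9% of all tested genes.

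The difference between the inhibitor's effects with and without TGFβ was tested as an interaction. In edgeR none of the 10 genes was called (0 of 10), where 1.11% of all tested genes were called (0.641% higher, 0.471% lower), and 1 of 10, *Ier2*, had an unadjusted p under 0.05 (0.49 ± 0.23, edgeR adjusted p = 0.456). DESeq2 called 0 of the 10, where 2.0% of all genes were called, and voom with quality weights 1, *Ier2*, where 3.56% were. For *Fosl1* the interaction was −0.09 with a 95% interval of −0.88 to 0.71, and for *Fos* −0.30 with an interval of −0.97 to 0.37. Both intervals include 0, and the size of interaction that this test could detect was not assessed. The interaction of *Jund* was −0.01 ± 0.33 with all libraries and 0.46 ± 0.12 without TGFβ replicate 2 (edgeR adjusted p = 0.0249).

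**Figure D4:**
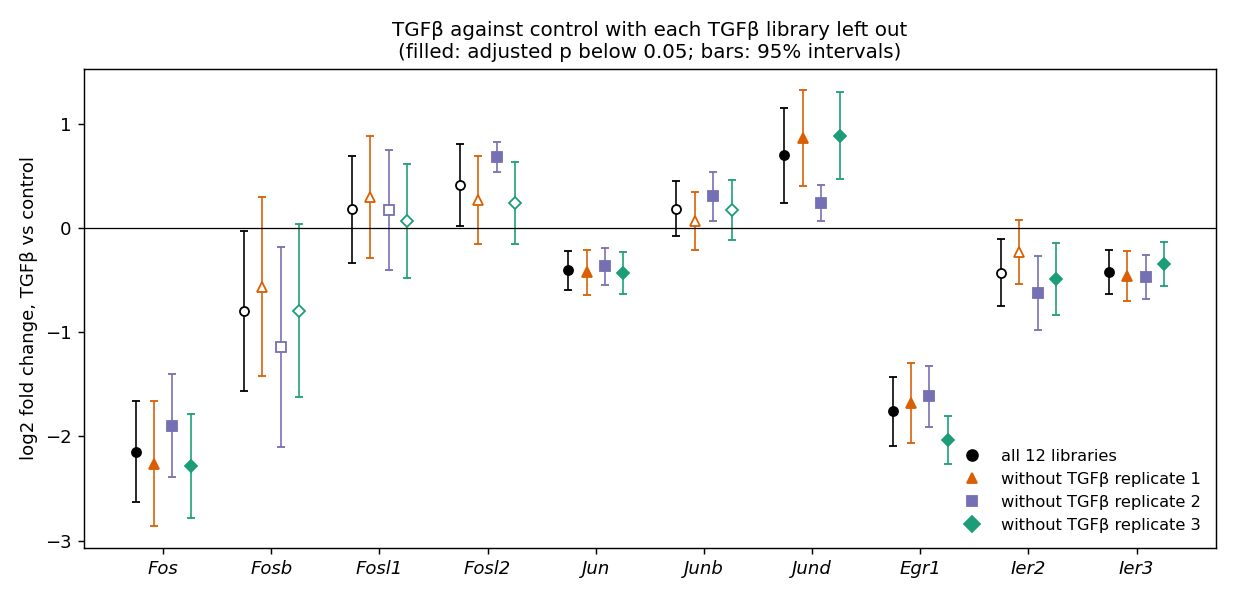
Log2 fold change of TGFβ against control for the 10 genes with all libraries and with each TGFβ library left out, with bars of the 95% interval and filled points where the adjusted p was below 0.05. Without TGFβ replicate 2, Jund is at 0.24 and Fosl2 at 0.68, against 0.70 and 0.42 with all libraries, while Fos and Egr1 stay between −2.28 and −1.62.

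Over the 12 libraries, the genes of at least 10 CPM whose log2 CPM ran most like that of each member were *Slc15a2* (Pearson r = 0.983) and *Gm42702* (0.98) for *Fos*, *Zmym6* (0.982) and *Cst3* (0.981) for *Egr1*, and *Robo3* (0.959) and *Pak3* (0.948) for *Fosl1*. *Fosl2* ran most like *Jup* (0.979) and *Chchd1* (0.972), and *Jund* most like *Rock1* (0.979) and *Pkd1* (0.957). *Junb* ran most like *Stx6* (0.957) and *Eif4g2* (0.936), *Jun* most like *Ntpcr* (0.961) and *Pigq* (0.956), and *Ier3* most like *Dnajb14* (0.973) and *Jarid2* (0.965). The values were lower for *Fosb*, with *Lrsam1* (0.901) and *Sgk3* (0.857), and for *Ier2*, with *Morn2* (0.87) and *Yif1a* (0.857). These coefficients describe 12 libraries that share their treatments and depth, and are given without a test.

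The kinases, partners, feedback genes and targets around AP-1 were read from 7 lists, with 1 list gene unmatched. Of 11 tested AP-1 dimer partners, the ATF, MAF and related zipper genes, 4 rose and 2 fell in TGFβ against control, 54.5% of them against 36.5% of all tested genes. *Maf*, a large MAF gene, averaged 202 ± 14.6 CPM in TGFβ + NNMTi and 181 ± 33.9 in TGFβ, against 461 ± 14.2 in NNMTi and 430 ± 10.7 in control (SD, n = 3). It fell by 1.25 ± 0.12 in TGFβ against control (edgeR adjusted p = 1.14e-07). *Maff*, a small MAF gene, fell by 1.12 ± 0.22 in NNMTi against control (edgeR adjusted p = 0.00258). It was the 1 called partner there, 9.09% of the list against 8.27% of all tested genes. Of these partners 0 rose and 2 fell in TGFβ + NNMTi against TGFβ, 18.2% against 10.4% of all tested genes.

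Among 37 tested other immediate early genes, 8 rose and 12 fell in TGFβ against control, 54.1% of them against 36.5% of all tested genes. Their median was −0.08, against 0.02 over all genes. *Sgk1*, a serum- and glucocorticoid-induced kinase, averaged 72.1 ± 16.8 CPM in TGFβ + NNMTi, 67.5 ± 22.9 in TGFβ, 2.56 ± 0.548 in NNMTi and 3.84 ± 0.238 in control (SD, n = 3), 17.7-fold higher in TGFβ than in control (edgeR adjusted p = 6.38e-09). *Trib1* and *Nr4a2* fell by 1.49 and 1.42 on the log2 scale with TGFβ, so that early genes other than *Fos* and *Egr1* were called in both directions. Of these early genes 3 rose and 5 fell in TGFβ + NNMTi against TGFβ, 21.6% against 10.4% of all tested genes. In NNMTi against control 0 rose and 5 fell, 13.5% against 8.27%. *Arc* averaged 34.0 ± 4.07 CPM in TGFβ + NNMTi, 78.4 ± 15.4 in TGFβ, 25.3 ± 4.58 in NNMTi and 41.5 ± 1.97 in control (SD, n = 3), and fell by 1.19 ± 0.16 in TGFβ + NNMTi against TGFβ (edgeR adjusted p = 8.37e-05).

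Of 24 tested MAP kinase cascade genes 4 rose and 5 fell with TGFβ, 37.5% against 36.5% of all tested genes, led among the falls by *Map3k1*, a kinase upstream of JNK, by 1.69 ± 0.15 (edgeR adjusted p = 4.91e-08). In TGFβ + NNMTi against TGFβ 1 rose and 1 fell, 8.33% against 10.4% of all tested genes. In NNMTi against control 0 rose and 1 fell, 4.17% against 8.27%. Of 12 SRF and CREB family regulators 3 rose and 1 fell with TGFβ, *Elk3* rising by 1.07 ± 0.15 (edgeR adjusted p = 2.4e-05). That is 33.3% of the list, near the share of all tested genes. None was called in TGFβ + NNMTi against TGFβ in edgeR (0 of 12), where 10.4% of all tested genes were. *Elk3* fell by 0.64 ± 0.16 in NNMTi against control (edgeR adjusted p = 0.0172). It was the 1 called there, 8.33% of the list against 8.27% of all tested genes.

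Of 16 tested MAP kinase phosphatases and feedback inhibitors 5 rose and 5 fell with TGFβ, 62.5% of them against 36.5% of all tested genes. *Dusp6*, the ERK phosphatase whose transcript is itself induced by ERK, averaged 54.5 ± 2.20 CPM in TGFβ + NNMTi, 56.3 ± 11.2 in TGFβ, 77.4 ± 5.85 in NNMTi and 147 ± 5.40 in control (SD, n = 3). It fell by 1.38 ± 0.12 in TGFβ against control (edgeR adjusted p = 7.76e-08) and by 0.93 ± 0.12 in NNMTi against control (edgeR adjusted p = 5.79e-05), where *Fos* and *Egr1* levels were higher than in control without passing the test. Its interaction was 0.87 ± 0.17 (edgeR adjusted p = 0.0165). *Dusp2*, another dual-specificity phosphatase gene, rose by 2.64 ± 0.30 with TGFβ (edgeR adjusted p = 3.29e-06). In TGFβ + NNMTi against TGFβ 0 rose and 1 fell, *Dusp7*, 6.25% against 10.4% of all tested genes. In NNMTi against control 0 rose and 1 fell, *Dusp6*, 6.25% against 8.27%.

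Of 13 genes for the turnover and corepression of AP-1 and EGR1, 4 rose and 1 fell with TGFβ, 38.5% against 36.5% of all tested genes. The one that fell, *Nab2*, encodes a corepressor of EGR1 and is an EGR1 target gene. *Nab2* averaged 27.5 ± 3.38 CPM in TGFβ + NNMTi, 14.4 ± 3.82 in TGFβ, 60.0 ± 4.03 in NNMTi and 40.6 ± 3.71 in control (SD, n = 3), in the same order of groups as *Egr1*. It fell by 1.46 ± 0.17 in TGFβ against control (edgeR adjusted p = 1.4e-06), rose by 0.90 ± 0.17 in TGFβ + NNMTi against TGFβ (edgeR adjusted p = 0.00205) and rose by 0.56 ± 0.15 in NNMTi against control (edgeR adjusted p = 0.0232), as the 1 called gene of the list in both tests of the inhibitor. That is 7.69% of the list in each, against 10.4% and 8.27% of all tested genes.

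Of 25 tested genes described as AP-1 targets, 13 rose and 4 fell with TGFβ, 68% of them against 36.5% of all tested genes. Their median was 0.55, against 0.02 over all genes. In TGFβ + NNMTi against TGFβ 0 rose and 12 fell, 48% against 10.4% of all tested genes, with a median of −0.63 against −0.02. In NNMTi against control 0 rose and 12 fell, 48% against 8.27%, with a median of −0.92 against 0.01. *Ccnd1*, which encodes cyclin D1, averaged 12.4 ± 1.99 CPM in TGFβ + NNMTi, 55.5 ± 10.3 in TGFβ, 167 ± 8.92 in NNMTi and 554 ± 9.36 in control (SD, n = 3). It fell by 2.13 ± 0.14 in TGFβ + NNMTi against TGFβ (edgeR adjusted p = 2.42e-08), by 1.73 ± 0.12 in NNMTi against control (edgeR adjusted p = 4.29e-08) and by 3.35 ± 0.13 in TGFβ against control (edgeR adjusted p = 1.69e-12). *Mmp9*, a matrix protease gene, averaged 26.3 ± 3.38 CPM in TGFβ + NNMTi, 36.8 ± 4.66 in TGFβ, 1.17 ± 0.445 in NNMTi and 4.36 ± 0.585 in control (SD, n = 3), and rose by 3.06 ± 0.20 in TGFβ against control (edgeR adjusted p = 1.08e-09). The genes of this list answer to other factors as well, and binding of AP-1 was not measured.

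**Figure D5:**
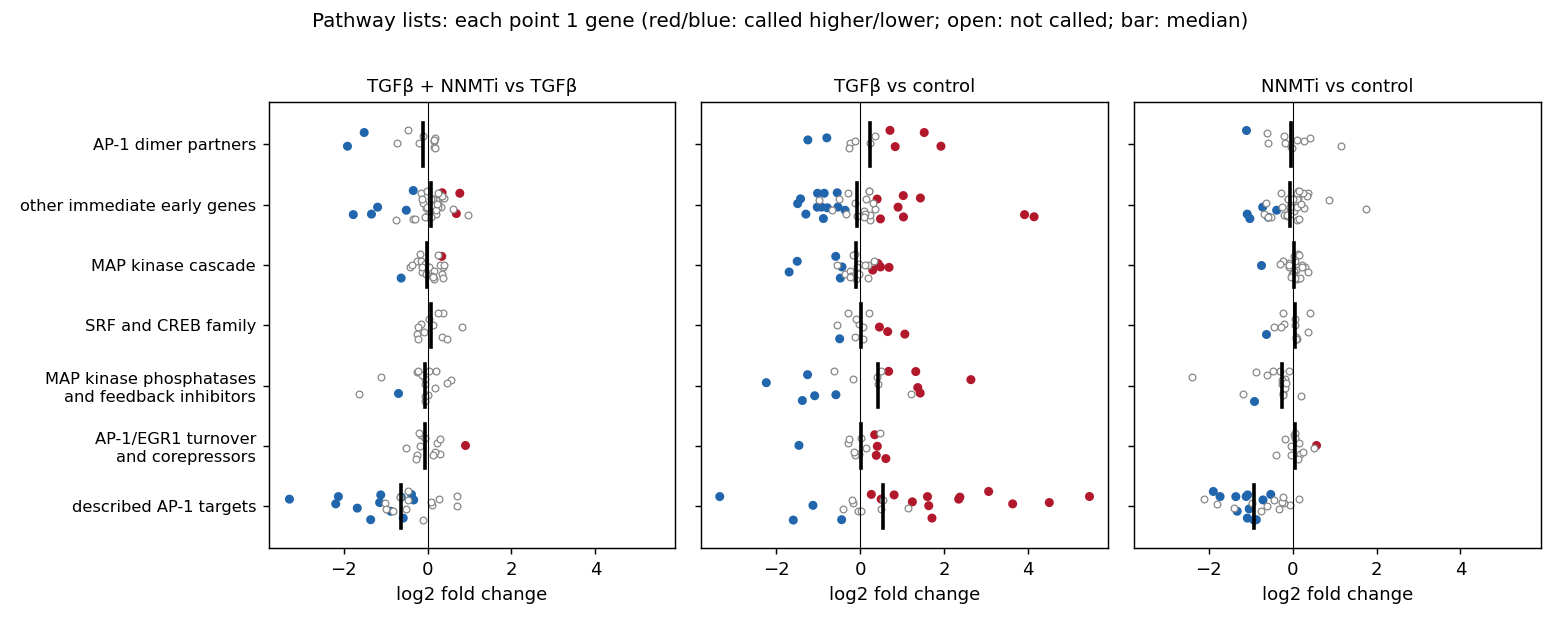
Log2 fold changes of the tested genes of the 7 pathway lists in TGFβ + NNMTi against TGFβ, TGFβ against control and NNMTi against control, with 1 point per gene, red where called higher, blue where called lower, open where not called, and a bar at the list's median. The genes described as AP-1 targets have their median at −0.63, 0.55 and −0.92 in these comparisons.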

How the data were processed

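Libraries were QuantSeq 3′ mRNA libraries made from 100 ng of total RNA of cells in 6-well plates, per the labels' protocols. STAR and HTSeq are named in the submitters' processing notes, without versions. They name the human build GRCh38, but the identifiers in the table are those of mouse genes. Positions are therefore given only from RefSeq and GENCODE on GRCm38. The deposited values are whole-number counts per gene, which the authors did not normalize. Of 55487 genes, 55141 identifiers were matched to a symbol. Rows that name no gene were left out. Reads in no annotated gene came to 21.1 to 26.8% of all counts and ambiguous reads to 0.613 to 0.802%.

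The filterByExpr step kept 13581 genes. TMM factors scaled the libraries, and robust quasi-likelihood F-tests of edgeR 4.0.16 with limma 3.58.1 in R 4.3.3 were run in 1 model of 4 group means with 12 libraries. P-values were Benjamini-Hochberg adjusted over all 13581 genes, and a gene was called at an adjusted p below 0.05. CPM is counts scaled to a common TMM-adjusted library size, and correlations used log2 CPM with a prior count of 3. Alternatives were DESeq2 1.42.0, RLE scaling, library size alone, no filter, only the groups compared, a replicate block, limma voom with quality weights, thinning to the shallowest library and leaving out each library. Leaving out TGFβ replicates 2 and 3 together, and the search for TGACG, were added after seeing the data. On simulated data of 13581 genes, the share of truly changed genes that was recovered at 1.5-fold was 31.7% of 63 for TGFβ against control, 25.4% of 67 for NNMTi against control and 37.1% of 62 for TGFβ + NNMTi against TGFβ. At 2-fold it was 50.7% of 69, 65.4% of 78 and 61.9% of 63 in the same order. In that order 120, 119 and 135 genes were called in the simulation, against 4961, 1123 and 1416 in the data. The adjusted p depends on how many genes change, so these shares describe the simulated data and not the power of the real comparisons. Recovery under the unequal variation of the real groups was not tested.

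All 10 members are named. Beside them stand, for each member, the 2 genes of at least 10 CPM with the highest Pearson r, and from each pathway list examples among the called members with the 2 largest rises and falls at 10 CPM or more. Some genes that these rules select are not reported here. The members and lists were chosen with earlier results of these data known. The labels do not say whether replicates are separate cultures. The p-values then reflect the spread of these libraries alone, which may be technical. Chi-square over its degrees of freedom lay between 3.23 and 40.8 for replicate pairs, so none was a duplicate of another. Same-numbered libraries did not deviate together (18 pairs, median r = 0.0152), so replicate numbers were not treated as pairs.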

Additional observations from a re-analysis of the deposited data

How the results depend on the processing

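Of 1085 values under 21 alternatives, 944 kept their direction and side of the threshold, 41 lost a call, 66 gained one and 34 turned sign, of which 0 had been called. Among these values the interaction is that of Jund and Ier2 only, and the sizes of the other interactions were not followed. The interaction of Jund made up 15 of the 34 turned signs. The number of the 10 genes called in TGFβ + NNMTi against TGFβ was 4, and 1 with only the 2 groups fitted, 2 after thinning and 1 to 6 with 1 library left out (1 without TGFβ + NNMTi replicate 3, 6 without TGFβ replicate 2). In TGFβ against control it was 5, and 9 with voom and quality weights and 4 to 8 with 1 library left out (8 without TGFβ replicate 2). In NNMTi against control it was 1, and 3 with no filter, 5 with only the 2 groups fitted, 4 with voom and 1 to 4 with 1 library left out (4 without TGFβ replicate 2). For the interaction it was 0, and 1 with voom and 0 to 1 with 1 library left out. Over all genes, the shares called in TGFβ against control were 36.5%, 44.4% with voom, 36.9% without TGFβ replicate 2 and 29.0 to 30.1% without any 1 control library. In TGFβ + NNMTi against TGFβ they were 10.4%, 3.19% with only the 2 groups, 6.75% thinned, 5.46% without TGFβ + NNMTi replicate 3 and 11.5% without TGFβ replicate 2. In NNMTi against control they were 8.27%, 5.36% with no filter, 22.6% with only the 2 groups and with voom, and 15.7% without TGFβ replicate 2. The cause of these shifts was not tested, except that a fit of 2 groups has fewer libraries and takes its spread from those groups.

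Values that turned sign had not passed the test with all libraries, and 1, the interaction of Jund, passed with its turned sign (adjusted p = 0.0249 without TGFβ replicate 2). The interaction of Jund (−0.01) was 0.020 in DESeq2, 0.015 with RLE scaling, 0.043 with library size alone, 0.018 with no filter, 0.033 with the replicate block, 0.33 with voom, 0.047 thinned, 0.41 without TGFβ replicates 2 and 3 and −0.20 to 0.46 with 1 library left out. In NNMTi against control, library size alone gave −0.015 for Jun and −0.038 for Ier2, voom −0.0028 for Fosb and thinning −0.016 for Ier2. Elsewhere Fosl1 was −0.13 with voom in TGFβ + NNMTi against NNMTi and −0.059 without TGFβ replicates 2 and 3 in TGFβ against control. In TGFβ + NNMTi against control Ier2 was −0.020 with library size alone and Ier3 0.012 thinned. With 1 library left out, the ranges were −0.00074 to 0.40 for Fos and −0.072 to 0.57 for Fosb in TGFβ + NNMTi against TGFβ, −0.26 to 0.39 for Fosl1 and −0.0055 to 0.12 for Ier2 against NNMTi, and −0.062 to 0.041 for Ier3 against control. In NNMTi against control they were −0.28 to 0.24 for Fosb, −0.014 to 0.12 for Jun and −0.031 to 0.10 for Ier2.

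Over all genes, calls in TGFβ + NNMTi against TGFβ were 1416, and 408 with only the 2 groups fitted, 778 thinned and 762 to 1938 with 1 library left out (762 and 856 without TGFβ + NNMTi replicates 3 and 1). In NNMTi against control they were 1123, and 2931 with only the 2 groups, 3064 with voom, 669 thinned, 2464 without TGFβ replicates 2 and 3 and 591 to 2179 with 1 library left out (2179 without TGFβ replicate 2, at most 684 without any NNMTi or control library). For the interaction they were 151, and 260 in DESeq2, 306 with no filter, 483 with voom, 88 thinned, 350 without TGFβ replicates 2 and 3 and 65 to 399 with 1 library left out (399 without TGFβ replicate 2). The shares of all genes beside the counts of the 10 move with these. For the interaction they were 1.11%, 3.56% with voom and 2.87% without TGFβ replicate 2. Library size alone moved the median of all genes by −0.12 in TGFβ + NNMTi against control. The replicate block, although the numbers did not pair the libraries, added Ier2 to the calls in TGFβ + NNMTi against TGFβ (adjusted p = 0.038) and in TGFβ against control (adjusted p = 0.0375). Fosb and Fosl1 rest on the fewest counts, and TGFβ replicate 3 has the lowest depth.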
